A study of Mus musculus with 23 samples.

Results

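The diet by antibody interaction was measured in mouse liver: how far the change that a glucagon receptor (GCGR) blocking antibody makes to each transcript on a high-fat diet (HFD) differs from the change it makes on chow. Per the labels, male C57BL/6J mice were on regular chow or HFD for 4 months and were then given an antibody over 3 weeks, at a dose of 10 mg/kg. The antibody was REGN1193, which blocks GCGR, or REGN496, taken here as the isotype control because the series names only REGN1193 as the blocking antibody. The 4 groups are chow with REGN496 (libraries 1 to 5), chow with REGN1193 (6 to 11), HFD with REGN496 (12 to 17) and HFD with REGN1193 (18 to 23). The interaction is the REGN1193 minus REGN496 difference on HFD minus the same difference on chow, on the log2(RPKM + 1) scale, where RPKM are read numbers divided by gene length and by the reads of the library. Its members are the genes that reached 0.5 RPKM in 5 or more of the 23 libraries: 11939 of the 24475 genes in the table. A positive value means that the antibody moved a transcript further up, or less far down, on HFD than on chow.

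Glucagon is released by pancreatic alpha cells in fasting and binds GCGR on hepatocytes, where the receptor raises cAMP. Through protein kinase A and CREB this promotes glucose output, amino acid uptake and breakdown, ureagenesis and fatty acid oxidation. Long feeding of a high-fat diet brings obesity, insulin resistance and triglyceride storage in the liver, so the same receptor is blocked in organs of different metabolic state. An interaction test asks directly whether the response depends on that state, which the genes that pass on each diet alone do not show.

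The liver label was checked by 11 hepatocyte markers, among them Alb, Ttr and Apoa1, which summed to between 58410 and 77790 RPKM in each library, above the sum of every list of markers of another cell type. Relative depth, read from the step that 1 read makes in 119 low genes, ranged from 0.863 to 1.12, and absolute depth was not derived. Genes above 0 numbered 15365 to 16032 per library. Libraries 19 and 20, both HFD with REGN1193, correlated least with the rest of their group, at a mean of 0.980 and 0.979. The median within-group SD was 0.161 in that group and 0.115 without these libraries, against 0.121, 0.132 and 0.133 in chow control, chow GCGR antibody and HFD control. Counts of genes that passed in each comparison are therefore also given without them, as are printed list medians that moved by over 1.5 times. The labels do not say that each library is a separate mouse, so p-values measure the spread between these libraries.

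The interaction test passed for few genes, and this count does not give the number of genes whose response depends on diet. The interaction passed the test (limma, Benjamini-Hochberg adjusted p under 0.05) in 24 genes, 0.201% of those tested: 15 were above 0 (0.126%) and 9 below (0.0754%). Positive genes included Cyp3a11, which encodes the main CYP3A drug and steroid hydroxylase of mouse liver, the sulfotransferase Sult5a1, the carboxylesterase Ces1g and the methionine enzyme Mat1a. Among the negative ones were Cyp17a1, encoding steroid 17-alpha-hydroxylase, Fam25c and Cbs, which encodes the first enzyme of transsulfuration. At an unadjusted p under 0.05 the interaction had 1177 genes, or 9.86%, where about 1 in 20 would do so with no interaction in any gene. For comparison, the antibody effect passed in 113 genes on chow (0.946%), of which 47 rose (0.394%) and 66 fell (0.553%). On HFD it passed in 889 (7.45%), of which 636 rose (5.33%) and 253 fell (2.12%). Without libraries 19 and 20, 63 rose and 87 fell on chow, and 839 rose and 472 fell on HFD.

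The count of 24 moved with single libraries. It was 17, 35, 29 and 22 without library 2, 16, 13 or 20. It was 8, 8, 10, 5, 6, 7, 5, 6 and 7 without library 1, 3, 4, 5, 6, 7, 8, 9 or 10, and 7, 11, 7, 12, 14, 11, 5 and 15 without library 12, 14, 15, 17, 18, 21, 22 or 23. Removing library 11 gave 37 and removing library 19 gave 65. Without libraries 19 and 20 together, 132 genes passed, 73 above 0 and 59 below, and all 24 were among them. These libraries were picked by their low correlation in the same values, and leaving them out lowers the spread. The p-values of that fit may therefore be too small, here and wherever genes are said to pass without them. After median-ratio scaling of the libraries the split was 7 above 0 and 10 below (41.2% above 0, against 62.5% as deposited), and quantile normalization gave 5 and 10. Cyp3a11, Fam25c and Odf3b passed under each of 33 alternatives.

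**Figure D1:**
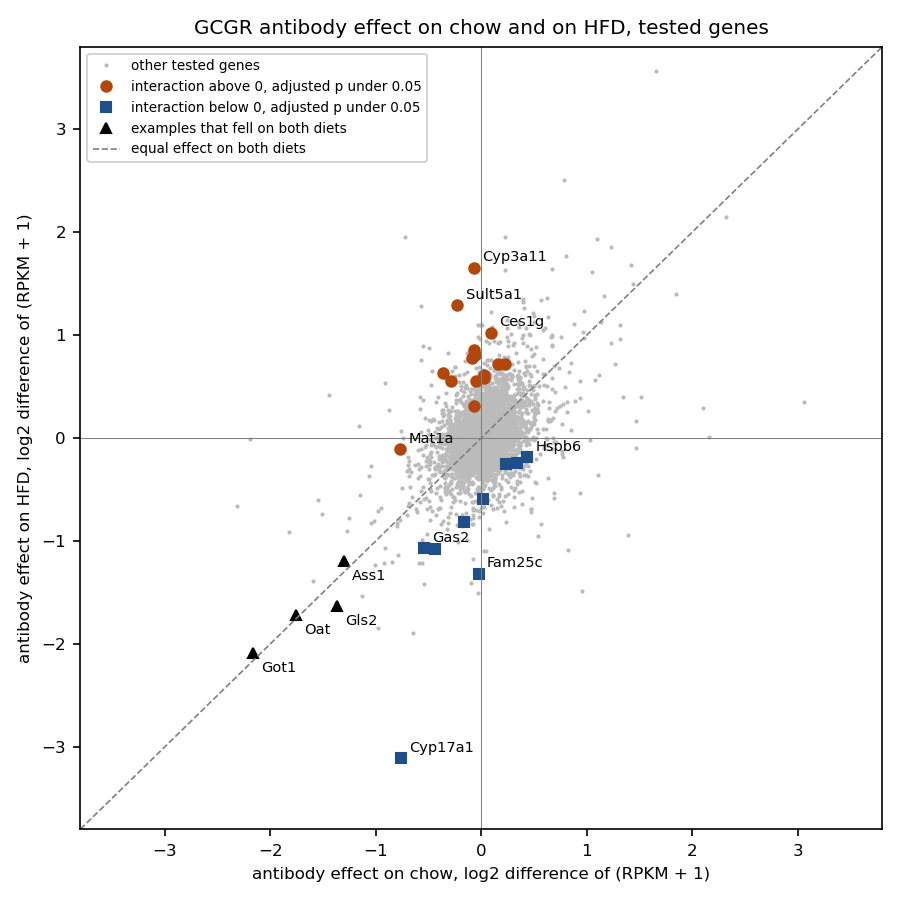
Antibody effect on chow (horizontal axis) and on HFD (vertical axis), both as log2 differences of RPKM + 1, for 11939 genes; circles and squares mark the 24 genes whose interaction passed above and below 0, triangles mark Got1, Oat, Gls2 and Ass1, and the dashed line is an equal effect. Cyp3a11 lies at -0.07 and 1.66 and Cyp17a1 at -0.76 and -3.11, away from the line, while Got1 lies at -2.17 and -2.09, close to it.

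Of the 24 genes, 14 passed on HFD as raised by the antibody and did not pass on chow, and 5 passed on HFD as lowered and did not pass on chow. A further 2, Gas2 and Cbs, fell on both diets and further on HFD. The last 3 passed on chow and not on HFD: Mat1a fell, and Pcolce2 and Hspb6 rose. None passed on both diets in opposite directions, although the estimates had opposite signs in genes such as Atp6v0d2 and Sel1l3. On HFD the libraries of both antibodies did not overlap in 20 of the 24 genes (2.85% of all tested genes), and on chow in 7 (2.5% of all tested genes). These shares describe genes that were picked by the same libraries and support nothing by themselves.

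In each of the 6 HFD libraries with REGN1193, between 21 and 23 of the 24 genes lay beyond the whole range of the HFD control libraries on the side of the interaction. This follows in large part from the choice of the genes by these libraries and is given as a description. In the chow libraries with REGN1193 between 6 and 11 genes lay beyond the chow controls on that side and 5 to 10 on the other.

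**Figure D2:**
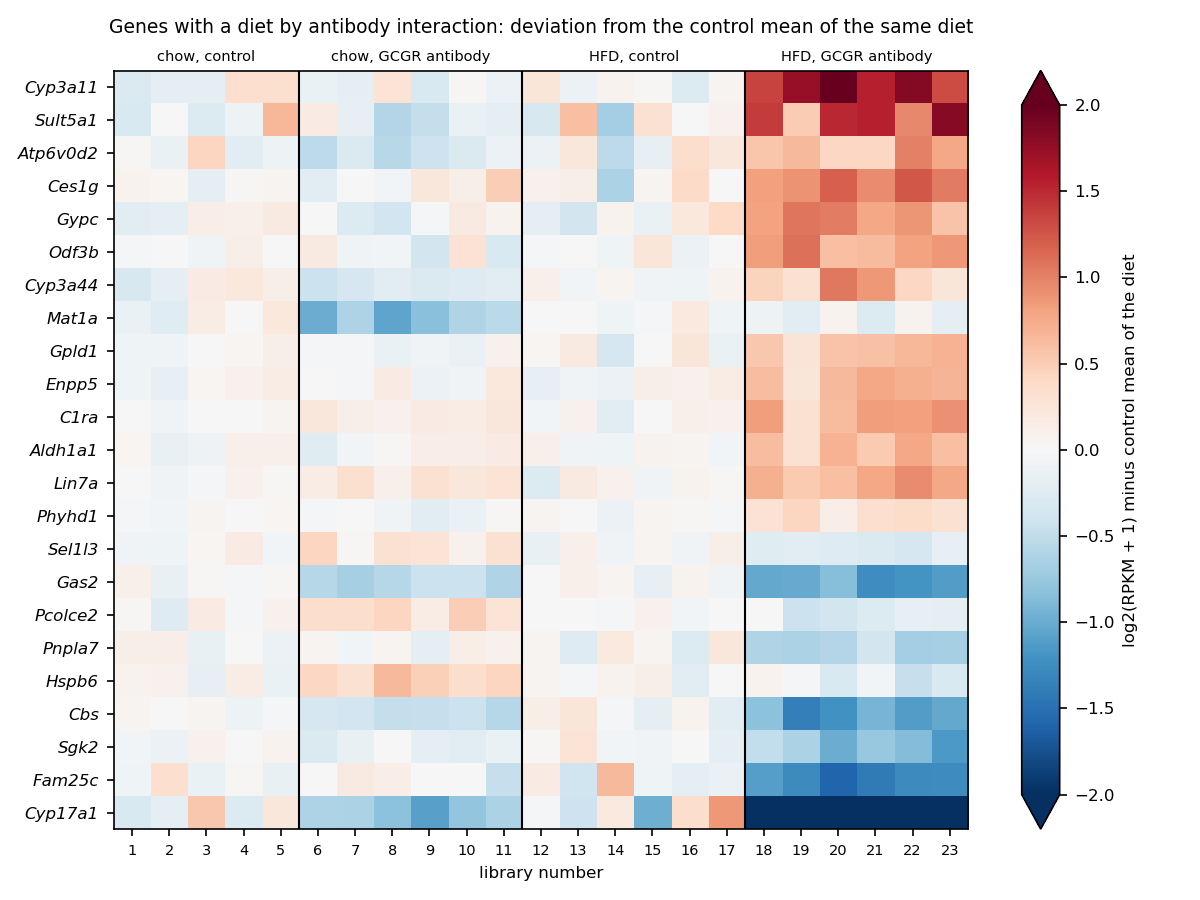
Deviation of each library (columns, by library number and group) from the control mean of its own diet on the log2(RPKM + 1) scale, for 23 of the 24 genes whose interaction passed (rows, ordered by the interaction). The 6 HFD libraries with GCGR antibody are the most strongly coloured, from Cyp3a11 at 1.31 to 2.15 down to Cyp17a1, while on chow the clearest colours are those of Mat1a, Gas2, Cbs, Cyp17a1 and Hspb6.

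Cyp3a11 (gene ID 13112, chromosome 5, 145854607 to 145879854 of GRCm38, minus strand) had the smallest p. Chow control libraries were at 2989, 3189, 3218, 4577 and 4556 RPKM, and chow libraries with GCGR antibody at 2957 at the lowest, 3338 at the median and 4410 at the highest. HFD control libraries ran from 231 to 333 (median 288) and HFD libraries with GCGR antibody from 694 to 1247 (median 883). The chow groups overlapped, and every HFD library with GCGR antibody lay above every HFD control and below every chow library. The antibody effect was -0.07 ± 0.15 (log2, SE) on chow and 1.66 ± 0.14 on HFD, an interaction of 1.73 ± 0.20 (limma, adjusted p = 0.00021; 95% interval 1.31 to 2.15). Log2 values are given ± SE and RPKM group means ± SD throughout. It passed under all 33 alternatives, at an adjusted p of at most 0.00111. Cyp3a11 has near-identical relatives in the same cluster, among which short reads can be shared.

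Its relative Cyp3a44 (chromosome 5, 145773983 to 145805891) was also positive, at 0.84 ± 0.17 (adjusted p = 0.0381), with means of 4.00 ± 0.767 and 3.06 ± 0.227 RPKM on chow, and on HFD at 0.193 ± 0.0657 and 0.788 ± 0.434 (control, then GCGR antibody; n = 5, 6, 6 and 6, as throughout). Its call was lost in 15 of 32 alternatives, with an adjusted p of up to 0.109. At so low an HFD level its size depends on the scale: it ran from 0.31 to 1.85 over the alternatives. Its size is therefore not comparable with that of Cyp3a11. Cyp3a25, a further member of the cluster, had 0.78 ± 0.19 and did not pass (adjusted p = 0.0951), and Cyp3a13 had 0.24 ± 0.12 (adjusted p = 0.543).

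The promoter windows of 3 genes whose call held under every alternative are shown because they pair the largest positive gene with a negative and a further positive one. Each is 250 bases before to 50 bases after the RefSeq start on GRCm38.p6, 5′ to 3′ on the gene's strand, and lies at chr5:145879805-145880104 (Cyp3a11), chr14:34355344-34355643 (Fam25c) and chr15:89379205-89379504 (Odf3b), all on the minus strand. The Fam25c window belongs to a start inside the span that RefSeq gives for the whole gene, while those of Cyp3a11 and Odf3b lie at the gene's outer end. Capitals mark matches to 1 of 3 motifs searched on both strands: the nuclear receptor half-site AGGTCA, the half-site of the cAMP response element TGACG, and the core of the interferon response element, a pair of GAAA separated by any 2 bases. A whole match of 1 motif cannot lie inside another.
Cyp3a11: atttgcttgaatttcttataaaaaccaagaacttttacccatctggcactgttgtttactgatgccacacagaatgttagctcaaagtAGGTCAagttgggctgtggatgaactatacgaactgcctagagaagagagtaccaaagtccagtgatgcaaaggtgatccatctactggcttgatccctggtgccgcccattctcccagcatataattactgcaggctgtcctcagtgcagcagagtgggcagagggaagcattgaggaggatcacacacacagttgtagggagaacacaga
Fam25c: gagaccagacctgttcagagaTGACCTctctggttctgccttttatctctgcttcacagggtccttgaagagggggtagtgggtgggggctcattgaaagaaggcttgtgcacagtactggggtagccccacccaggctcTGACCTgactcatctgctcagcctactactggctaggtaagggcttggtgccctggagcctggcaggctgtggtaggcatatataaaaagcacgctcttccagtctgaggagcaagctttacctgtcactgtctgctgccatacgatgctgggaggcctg
Odf3b: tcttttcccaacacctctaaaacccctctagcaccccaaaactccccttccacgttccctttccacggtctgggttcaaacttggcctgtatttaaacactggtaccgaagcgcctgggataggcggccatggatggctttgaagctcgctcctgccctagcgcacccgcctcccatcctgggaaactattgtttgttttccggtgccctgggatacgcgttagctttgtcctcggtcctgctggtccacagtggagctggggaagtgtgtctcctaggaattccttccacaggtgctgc
AGGTCA was found at base 89 of the Cyp3a11 window, counted from its 5′ end, and, on the other strand, at bases 22 and 141 of the Fam25c window. Odf3b held none of the 3. Over the 16 genes of the 24 that have a window, AGGTCA lay in 4 (Cyp3a11, Cyp3a44, Fam25c and Phyhd1), TGACG in 2 and the interferon element core in 1, while the shares among 12036 windows of tested genes were 13.3%, 30.5% and 3.12%. A match is a description of these letters only.

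Ces1g, Sult5a1 and Aldh1a1, which encode enzymes, were among the other genes that rose on HFD and did not pass on chow. The carboxylesterase gene Ces1g (chromosome 8, 93302369 to 93337209), whose product hydrolyses esters and lipids, was at 100.2 ± 7.19 and 108 ± 19.3 RPKM on chow, and on HFD at 76.7 ± 16.3 and 155 ± 17.7, an interaction of 0.93 ± 0.19 (adjusted p = 0.0381). Sult5a1 was at 8.30 ± 2.87 and 6.80 ± 1.45 on chow and 3.27 ± 1.31 and 9.47 ± 3.08 on HFD (1.52 ± 0.32, adjusted p = 0.0439), and its HFD groups overlapped. Aldh1a1, which oxidises retinaldehyde to retinoic acid, was at 692 ± 55.6 and 705 ± 73.3 on chow and 775 ± 44.1 and 1169 ± 128 on HFD (0.56 ± 0.12, adjusted p = 0.0439). Under the alternatives Ces1g, Sult5a1 and Aldh1a1 passed in 14, 10 and 12 of 33. Ces1g belongs to a family of similar genes, so its reads may be shared.

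Cyp17a1 (gene ID 13074, chromosome 19, 46667165 to 46673000) had the largest negative interaction. Chow control libraries were at 0.969, 1.13, 2.53, 1.02 and 1.83 RPKM and chow libraries with GCGR antibody between 0.144 and 0.591 (median 0.488). HFD control libraries ran from 10.8 to 41.5 (median 23.6) and HFD libraries with GCGR antibody from 0.714 to 3.93 (median 1.63). The antibody groups did not overlap on either diet, and the HFD libraries with GCGR antibody overlapped the chow controls. The effect was -0.76 ± 0.26 on chow, which did not pass (adjusted p = 0.252), and -3.11 ± 0.25 on HFD, an interaction of -2.35 ± 0.36 (adjusted p = 0.0054). The scale matters for so low a chow level: with a pseudocount of 0.1 the interaction was -2.15 (adjusted p = 0.0925) and the call was lost, while in the other 32 alternatives it held. The predicted gene Gm41857 overlaps its model.

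Fam25c (gene ID 69134, chromosome 14, 34351882 to 34358339) was lower with the antibody on HFD alone. Its chow control libraries were at 46.1, 61.8, 44.6, 49.7 and 43.8 RPKM, and those with GCGR antibody ran from 35.2 to 55.7 (median 48.9). On HFD the controls ran from 54.9 to 115 (median 67.4) and the GCGR antibody libraries from 23.7 to 33.5 (median 29.5). The chow groups overlapped widely, and on HFD the antibody libraries lay below all others of the experiment. The interaction was -1.29 ± 0.20 (adjusted p = 0.0054) and stayed at an adjusted p of at most 0.0198.

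**Figure D3:**
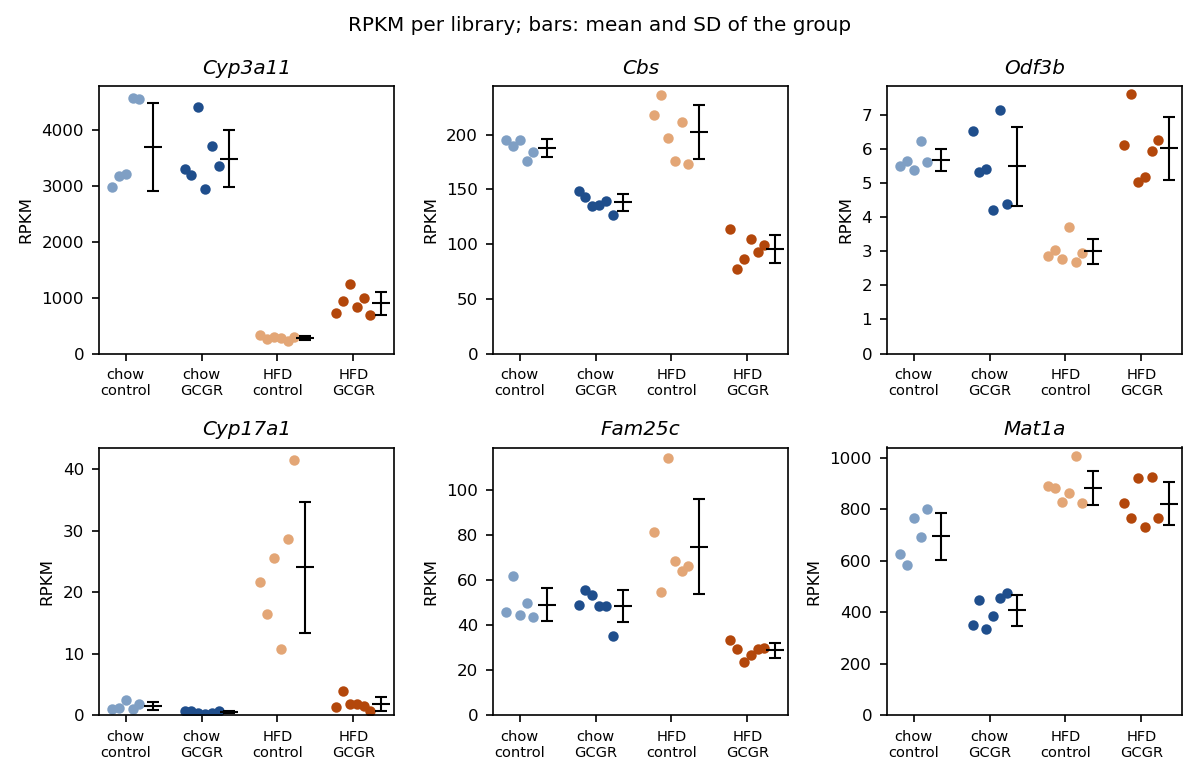
RPKM (vertical axis, from 0) of 6 genes for all 23 libraries, split by diet and by antibody; each point is a library and the black marker with its bar is the group mean ± SD (n = 5, 6, 6 and 6). Cyp3a11 and Odf3b are higher and Cyp17a1, Fam25c and Cbs lower with the GCGR antibody on HFD, while Mat1a is lower with it on chow, at 407 against 695 RPKM.

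Atp6v0d2, a subunit of the proton pump that acidifies lysosomes and is known from macrophages and osteoclasts, was at 0.827 ± 0.346 and 0.407 ± 0.166 RPKM on chow, and on HFD at 1.29 ± 0.495 and 2.51 ± 0.573, an interaction of 1.0 ± 0.20 (adjusted p = 0.0381, passed in 15 of 32 alternatives). At so low a level its size depends on the scale, and it ran from 0.36 to 1.84 over the alternatives. Of 24 tested macrophage and monocyte markers 0 passed for the interaction (0.201% of all tested genes), and 2 had an unadjusted p under 0.05 (9.86% of all tested genes). Their median interaction was -0.12, against 0.02 for all genes. Summed over the 28 markers in the table, the level ran from 141 to 252 and 227 to 329 RPKM on chow and from 151 to 302 and 161 to 291 on HFD (control, then GCGR antibody). No marker was at 0 in all libraries, and Gpnmb and Tnf had medians under 0.1 RPKM. The part of these cells in the change of Atp6v0d2 was not tested, and fewer cells of a type and less RNA per cell cannot be told apart in bulk liver RNA.

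Odf3b, a relative of the outer dense fibre proteins of sperm tails (gene ID 70113, chromosome 15, 89377447 to 89379254), was at 5.51, 5.63, 5.37, 6.23 and 5.61 RPKM in chow controls and at 4.19 to 7.12 (median 5.37) with GCGR antibody. HFD controls ran from 2.68 to 3.69 (median 2.91) and HFD libraries with GCGR antibody from 5.02 to 7.59 (median 6.01). The HFD antibody libraries thus stood clear of the HFD controls and overlapped both chow groups. Its interaction was 0.86 ± 0.14 (adjusted p = 0.0099; at most 0.0299).

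Gypc, which encodes glycophorin C, a membrane protein of red cells and other cells, was at 3.03 ± 0.529 and 2.84 ± 0.551 RPKM on chow, and on HFD at 2.51 ± 0.687 and 5.30 ± 0.776 (0.93 ± 0.18, adjusted p = 0.0343; passed in 22 of 33 alternatives). Red blood cell genes went the other way: all 7 tested had an interaction below 0, with a median of -0.63. Of them 0 passed (0.201% of all tested genes) and 4 had an unadjusted p under 0.05 (9.86% of all tested genes). Their summed level was 1295 to 2554 RPKM in HFD controls and 811 to 1840 with GCGR antibody on HFD, against 523 to 1155 and 781 to 2172 on chow, over 8 genes of which Hbb-bs had a median under 0.1. Their part in the change of Gypc was not tested.

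Genes of secreted proteins were among the positive ones too. C1ra, a protease of the first complement component, was at 150.2 ± 4.79 and 168 ± 6.66 RPKM on chow, and on HFD at 94.6 ± 8.13 and 158 ± 23.1 (0.56 ± 0.12, adjusted p = 0.0439), and its groups did not overlap on either diet. Gpld1, the phospholipase D that releases GPI-anchored proteins, was at 86.1 ± 5.06 and 82.9 ± 5.01 on chow and 63.9 ± 9.31 and 93.7 ± 9.67 on HFD (0.61 ± 0.12, adjusted p = 0.0381). For both, the HFD controls were the lowest group. C1ra and Gpld1 passed in 12 and 11 of 33 alternatives, with an adjusted p of up to 0.12 and 0.119.

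Enpp5, Lin7a and Phyhd1 had interactions of 0.58 ± 0.12, 0.50 ± 0.10 and 0.38 ± 0.08 (adjusted p = 0.0439, 0.0439 and 0.0381). Enpp5 was at 10.8 and 11.1 RPKM on chow, and on HFD at 8.84 and 14.1, Lin7a, a scaffold of cell polarity, at 5.37 and 6.46 on chow and 4.62 and 8.26 on HFD, and Phyhd1 at 44.2 and 42.1 on chow and 44.0 and 54.8 on HFD. In Lin7a the GCGR antibody libraries lay above the controls without overlap on chow as well. These calls were lost in 22, 21 and 19 of 33 alternatives, with adjusted p of up to 0.127, 0.12 and 0.13. Aldh1a1, Lin7a and Phyhd1 fall outside the rule for named genes and were added after their values were seen.

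Methionine enzymes stood on both sides. Mat1a (gene ID 11720, chromosome 14, 41105012 to 41124428) makes S-adenosylmethionine in hepatocytes. Its chow control libraries were at 628, 584, 766, 693 and 802 RPKM and chow libraries with GCGR antibody between 333 and 473 (median 418). HFD controls ran from 826 to 1006 (median 874) and HFD libraries with GCGR antibody from 732 to 924 (median 795). The antibody separated the groups on chow and not on HFD, at -0.77 ± 0.10 (adjusted p = 1.36e-04) and -0.11 ± 0.10 (adjusted p = 0.526). The interaction was 0.67 ± 0.14 (adjusted p = 0.0439), and the call held in 11 of 33 alternatives (adjusted p up to 0.127).

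Cbs (gene ID 12411, chromosome 17, 31612623 to 31637233) condenses homocysteine with serine. Chow controls were at 195, 190, 195, 176 and 184 RPKM and chow libraries with GCGR antibody at 127 to 149 (median 138). HFD controls ran from 174 to 237 (median 204) and HFD libraries with GCGR antibody from 77.0 to 114 (median 95.7). Both diets showed a fall without overlap, and the lowest libraries of all were those of GCGR antibody on HFD. The fall was 0.44 ± 0.09 on the log2 scale on chow and 1.08 ± 0.08 on HFD, an interaction of -0.63 ± 0.12 (adjusted p = 0.0343), passed in 20 of 33 alternatives (adjusted p up to 0.0889).

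Neighbours of these enzymes did not pass. Cth, which follows Cbs, had an interaction of 0.69 ± 0.19, the opposite sign to Cbs (adjusted p = 0.184), and passed as positive without libraries 19 and 20. Mat2a, the methionine adenosyltransferase of other tissues, had 0.58 ± 0.14 (adjusted p = 0.0951). Gnmt, which spends S-adenosylmethionine, had 0.27 ± 0.20 with falls on both diets, and Ahcy and Bhmt had 0.39 ± 0.15 and 0.63 ± 0.26 (adjusted p = 0.68, 0.403 and 0.435).

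Among the other negative genes, Gas2, a protein of the actin and microtubule skeleton, was at 19.4 ± 1.28 and 12.98 ± 0.914 RPKM on chow, and on HFD at 19.8 ± 1.47 and 8.92 ± 0.991, with no overlap on either diet (the model Fancf overlaps the gene) and an interaction of -0.53 ± 0.10 (adjusted p = 0.0278; passed in 28 of 33 alternatives, lost without library 5, 8, 9, 10 or 22, up to 0.0626). The kinase gene Sgk2 was at 33.6 ± 2.01 and 29.9 ± 2.24 on chow and 32.3 ± 3.79 and 18.1 ± 3.16 on HFD (-0.65 ± 0.13, adjusted p = 0.0381). Pnpla7, a lysophospholipase, was at 22.2 ± 2.11 and 22.4 ± 1.75 on chow and 28.7 ± 4.41 and 18.6 ± 1.61 on HFD (-0.60 ± 0.12, adjusted p = 0.0439). Sgk2 and Pnpla7 each passed in 14 of 33 alternatives, with an adjusted p of up to 0.0889 and 0.12. All 3 reached their lowest group mean with GCGR antibody on HFD.

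Hspb6, Pcolce2 and Sel1l3 had higher means with the antibody on chow and lower ones on HFD. Hspb6, a small heat shock protein, was at 8.94 ± 0.961 and 12.4 ± 1.19 RPKM on chow, and on HFD at 9.20 ± 0.792 and 8.03 ± 1.25 (-0.62 ± 0.12, adjusted p = 0.0381). Pcolce2, which enhances procollagen processing, was at 0.713 ± 0.181 and 1.16 ± 0.178 on chow and 0.870 ± 0.0697 and 0.589 ± 0.170 on HFD (-0.58 ± 0.11, adjusted p = 0.0343). Sel1l3 was at 4.10 ± 0.384 and 5.03 ± 0.637 on chow and 3.44 ± 0.337 and 2.72 ± 0.141 on HFD (-0.49 ± 0.10, adjusted p = 0.0381). The rise on chow passed for Hspb6 and Pcolce2 (adjusted p = 0.0146 and 0.0367) and the fall on HFD for Sel1l3 (adjusted p = 0.0231). Over the alternatives the interaction passed in 17 of 33 for Hspb6, 21 of 32 for Pcolce2 and 19 of 33 for Sel1l3, with an adjusted p of up to 0.112, 0.0754 and 0.109. At the low level of Pcolce2 the size depends on the scale, and it ran from -1.18 to -0.18. The models Lin37 and Gm38670 overlap Hspb6.

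The 8 genes with the smallest p on both diets were picked among genes with the same direction on both. They were ranked by the larger of the adjusted p on chow and on HFD. This choice favours similar effects on both diets, so their interactions are given as a description. These 8 genes were Got1, Gls2, Oat, Ass1, Lhpp, Gnpda1, Gas2 and Hgd, and only Gas2 had an interaction that passed (0.201% of all tested genes did). For Got1, the cytosolic aspartate aminotransferase, the interaction was 0.08 ± 0.24 with a 95% interval of -0.41 to 0.57, beside effects of -2.17 and -2.09. For Oat, ornithine aminotransferase, it was 0.03 (-0.51 to 0.58), for the urea cycle enzyme gene Ass1 0.11 (-0.32 to 0.53) and for the liver glutaminase gene Gls2 -0.27 (-0.63 to 0.09). Hgd of tyrosine breakdown had 0.08 (-0.13 to 0.29), Gnpda1 of glucosamine phosphate breakdown -0.03 (-0.32 to 0.26) and the phosphatase gene Lhpp -0.22 (-0.55 to 0.10). These libraries do not exclude differences within these intervals. The intervals are not adjusted for the number of genes tested, so larger differences could also fail to pass. The sign of the interaction itself was not stable for Got1, Oat, Ass1 and Gnpda1, which turned under some alternatives.

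The labels tie the experiment to the transaminases ALT and AST. Gpt, which encodes the main ALT of liver, was at 146 ± 26.8 and 109.9 ± 12.7 RPKM on chow, and on HFD at 144 ± 19.9 and 151 ± 10.5. Its interaction of 0.48 (0.17 to 0.79) did not pass over all genes (adjusted p = 0.227). Gpt2 and Got2, encoding the mitochondrial ALT and AST, had 0.28 (-0.18 to 0.73) and -0.09 (-0.24 to 0.06), and the target transcript Gcgr -0.06 (-0.20 to 0.07), with adjusted p of 0.713, 0.733 and 0.787. As the antibody acts on the receptor protein, the Gcgr transcript does not check the labels.

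**Figure D4:**
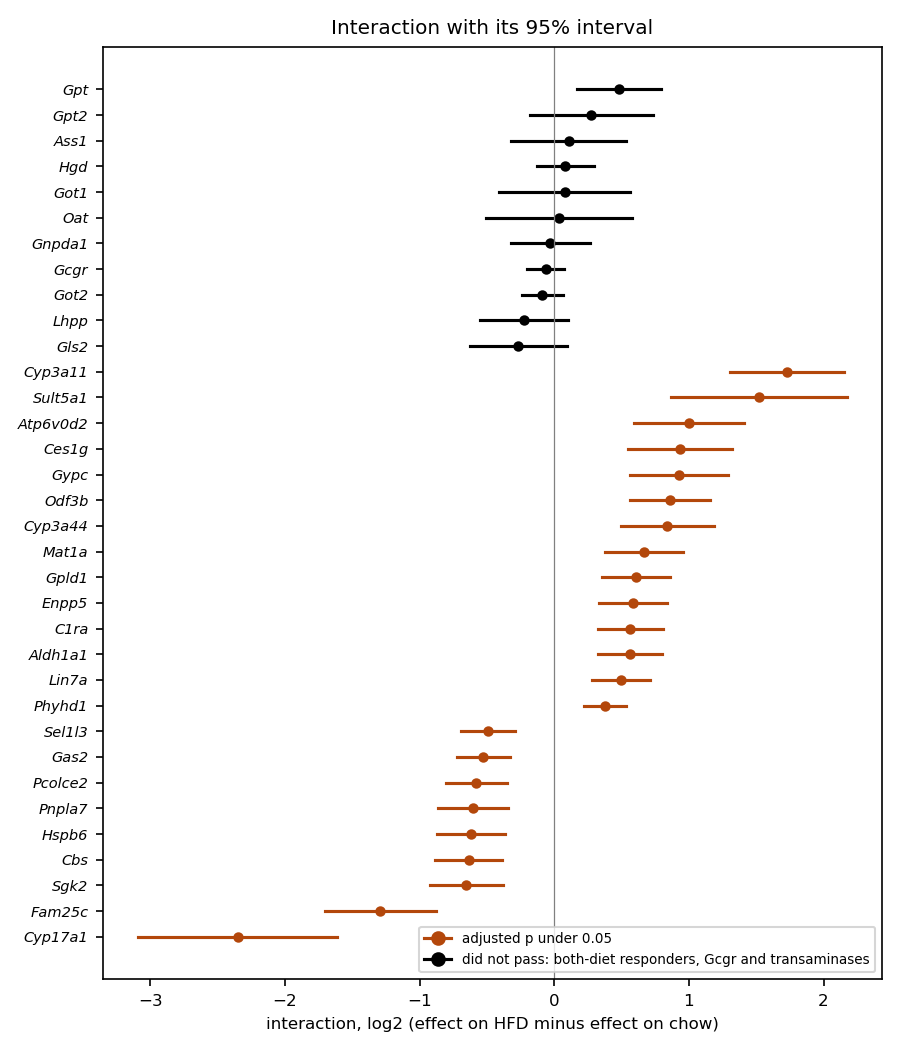
Interaction (point) with its 95% interval (line) on the log2 scale, for 23 of the 24 genes that passed and for 11 others: 7 that fell on both diets, Gcgr and 3 transaminase genes. The intervals of Got1, Oat and Ass1 span 0 with widths of about 1 unit, and that of Cyp3a11 runs from 1.31 to 2.15.

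Over all tested genes, effects on chow and HFD had a Pearson r of 0.39 across genes, which are not independent replicates, and no library is shared between them. Of the 113 genes that passed on chow, 106 had the same sign on HFD (93.8%, against 61.6% of all tested genes), and 5 passed for the interaction. Of the 889 that passed on HFD, 720 had the same sign on chow (81%), and 21 passed for the interaction. Among all tested genes 0.201% passed for the interaction. The effect on each diet is a part of the interaction, so the choice of these genes itself raises both counts. A total of 60 genes passed on both diets in the same direction and 0 in opposite ones. In these 60 the effect was larger on HFD in 30, and the interval of the interaction lay within 1 log2 unit of 0 in 56 and within 0.5 in 32. Among all 11939 tested genes the same counts were 7235, 11335 and 8929, so narrow intervals were not particular to the 60. In the 636 genes that rose on HFD the median effect was 0.35 on HFD and 0.09 on chow, while in the 47 that rose on chow it was 0.51 on chow and 0.24 on HFD. Each of these sets was picked by its values on 1 diet, a choice that favours larger values there. The median SE of the interaction was 0.12, against 0.09 and 0.08 for the effects on chow and HFD.

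Gene groups of liver metabolism were described by their members that passed and by their medians, beside 53.9% of all tested genes with an interaction above 0 and a median of 0.02. Of all tested genes 0.201% passed for the interaction, so most lists of these sizes would hold none. A list in which 0 passed is therefore no evidence that its genes lack an interaction, here and in the paragraphs below. Of 58 P450 and conjugation genes, 3 passed as positive (Cyp3a11, Cyp3a44 and Ces1g) and 1 as negative (Cyp17a1), 43 lay above 0 and the median was 0.26, from -0.02 on chow to 0.25 on HFD. Without libraries 19 and 20, 8 passed above 0, among them Cyp1a2, Cyp2e1 and Cyp2c54, and 4 below, among them Gstm1 and Gstm2 of glutathione conjugation. The median effect on HFD was then 0.16. In the bile acid list 0 of 23 passed, with 18 above 0 and a median of 0.26. Its smallest p was that of Akr1d1, which reduces bile acid precursors, at 0.91 ± 0.21 (adjusted p = 0.084), and Akr1d1 and Baat passed without libraries 19 and 20.

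In amino acid breakdown, 1 of 57 genes passed above 0 (Mat1a) and 1 below (Cbs). The median effect was -0.22 on chow and -0.10 on HFD, and 42 of the 57 interactions lay above 0. None of 9 urea cycle genes, 20 amino acid transporters and 18 gluconeogenesis genes passed, with medians of 0.11, 0.09 and 0.09. Without libraries 19 and 20 the transporter and gluconeogenesis medians were 0.17 and 0.02, and the transporters Slc16a10 and Slc6a12 passed above 0. The smallest p in these lists were those of the glutamate carrier Slc25a22 at -0.32 ± 0.13, the transporter Slc7a7 at -0.36 ± 0.12 and the transcription factor Foxo1 at 0.41 ± 0.14 (adjusted p = 0.433, 0.299 and 0.314). Of 21 genes of cAMP and GCGR signalling 0 passed, with Gnas, the stimulatory G protein alpha subunit, at -0.21 ± 0.09 (adjusted p = 0.445).

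No gene of the 3 lipid lists passed (0.201% of all tested genes did). Of 27 lipid droplet and uptake genes 0 passed and 5 lay above 0. Median effects were 0.16 on chow and -0.20 on HFD, and the interaction median was -0.18. Without libraries 19 and 20 the HFD and interaction medians were -0.38 and -0.35. The highest interaction of the list and its smallest p were those of Slc27a5, a bile acid and fatty acid CoA ligase (0.40 ± 0.12, adjusted p = 0.222). Without libraries 19 and 20 the droplet coat genes Plin2 and Plin4 passed below 0. Of 26 fatty acid and triglyceride synthesis genes 0 passed and 12 lay above 0, with a median of -0.07 (-0.17 without libraries 19 and 20), the desaturase Fads2 having -0.65 ± 0.19 (adjusted p = 0.189), and Fads2, Elovl2 and Elovl5 passed below 0 without those libraries. Of 34 fatty acid oxidation and PPARA target genes 0 passed (median -0.15, 8 above 0), with Acat1 at -0.38 ± 0.11 (adjusted p = 0.189). In 24 genes of glycolysis and glycogen 0 passed, and the lactate dehydrogenase gene Ldha had -0.70 ± 0.16 (adjusted p = 0.0766), with 296 and 303 RPKM on chow, and on HFD at 603 and 373. Ldha passed without libraries 19 and 20 and after median-ratio scaling.

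Of the cholesterol synthesis and uptake genes 22 of 25 lay above 0, with medians of -0.21 on chow, 0.12 on HFD and 0.34 for the interaction, and 0 passed. Without libraries 19 and 20 the HFD median was 0.29. The smallest p of the list was that of Srebf2, the transcription factor of the pathway (0.37 ± 0.13, adjusted p = 0.304). Of 30 genes of the ATF4 and endoplasmic reticulum stress list 7 lay above 0, with medians of 0.26, -0.10 and -0.28, and 0 passed. The transcription factor Atf5 had -0.79 ± 0.22 (adjusted p = 0.166). In 23 cell cycle genes 0 passed and 4 lay above 0, Tyms of thymidylate synthesis having -1.22 ± 0.34 (adjusted p = 0.166). After median-ratio and quantile scaling the interaction medians were 0.32 and 0.34 for cholesterol genes and -0.30 and -0.29 for the stress list.

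**Figure D5:**
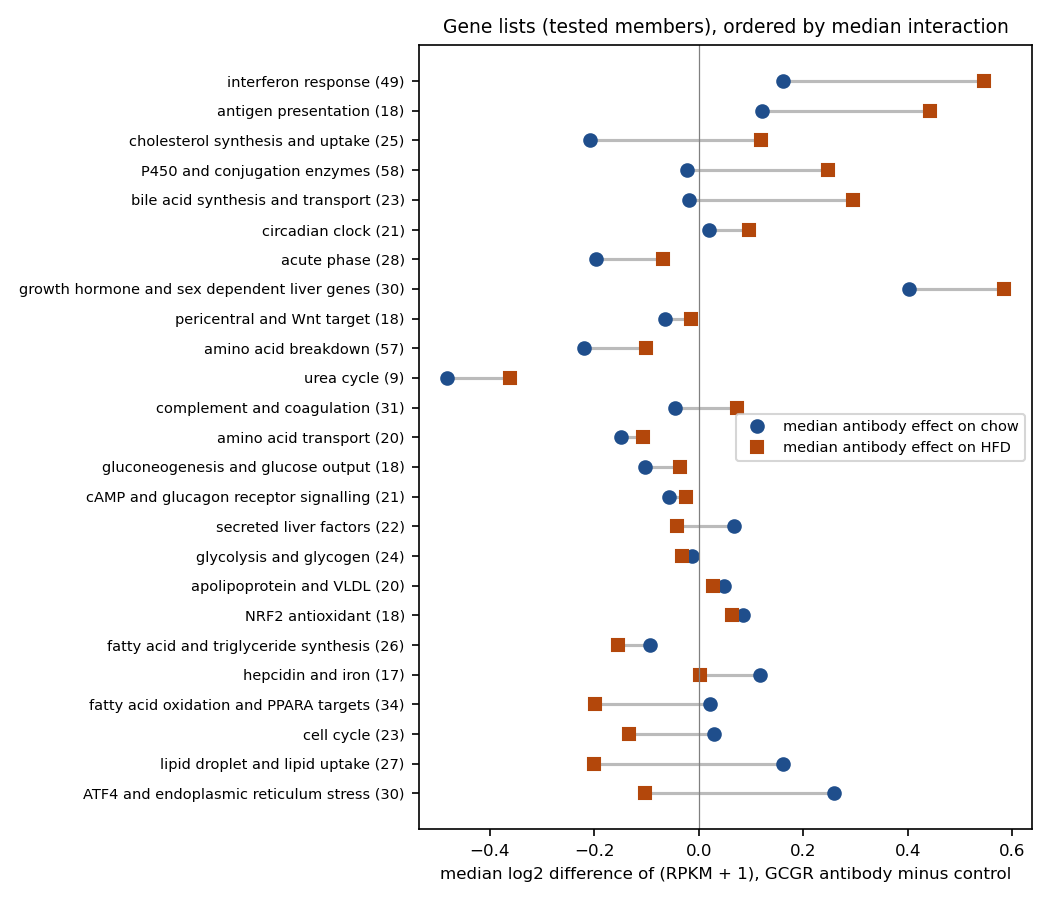
Median antibody effect on chow (circles) and on HFD (squares) for 25 gene lists, as log2 differences of RPKM + 1, ordered by the median interaction; the number of tested members is in parentheses. The interferon list runs from 0.16 to 0.54 and the lipid droplet list from 0.16 to -0.20, while the urea cycle list lies below 0 on both diets, at -0.48 and -0.36. All medians shown are from the fit on all libraries.

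Interferon response and antigen presentation genes had interaction medians of 0.39 and 0.35, the highest of the 25 liver and immune lists as fitted on all libraries. Without libraries 19 and 20 the medians were 0.39 and 0.29, below those of the growth hormone and cholesterol lists at 0.55 and 0.50. Of 49 interferon genes 0 passed for the interaction (0.201% of all tested genes did). On HFD 35 of them rose (5.33% of all tested genes rose there), and 0 rose on chow (0.394% of all tested genes). Of the interferon genes 44 had an interaction above 0 and 25 had an unadjusted p under 0.05 (9.86% of all tested genes). Ifit1, which binds foreign RNA, had the smallest p: it was at 1.67 ± 0.818 and 1.76 ± 0.300 RPKM on chow, and on HFD at 2.84 ± 1.01 and 7.93 ± 1.87, an interaction of 1.14 ± 0.26 that did not pass (adjusted p = 0.0766). In Ifit1 the chow groups overlapped, and the HFD antibody libraries lay above all others. Ifit1 and Ifih1 passed without libraries 19 and 20. All 18 antigen presentation genes lay above 0 and 0 passed, with the class I gene H2-Q7 at 0.82 ± 0.21 (adjusted p = 0.121). Of 6 tested T and NK cell markers 0 passed. Their summed level over 16 markers was 8.20 to 11.7 and 7.002 to 9.56 RPKM on chow and 13.04 to 17.1 and 11.2 to 25.0 on HFD, with Klrb1c, Ncr1 and Prf1 under 0.1 at the median and none at 0 in all libraries. The part of these cells in the interferon genes was not tested.

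The remaining lists held 1 gene that passed, C1ra of 31 complement and coagulation genes (25 above 0, median 0.10, or 0.19 without libraries 19 and 20). None passed among 30 growth hormone and sex dependent genes, whose medians were 0.40 on chow, 0.58 on HFD and 0.18 for the interaction, or among 28 acute phase, 17 hepcidin and iron, 20 apolipoprotein, 22 secreted factor, 18 antioxidant, 21 clock and 18 pericentral genes. The growth hormone list moved most with libraries 19 and 20: without them its interaction median was 0.55, with 26 of 30 above 0 in place of 21. With array weights, which are lowest for these libraries, the interaction median was 0.47. The HFD median of the list was 0.98 without libraries 19 and 20. Single members had wide errors, such as Hamp2, a copy of the hepcidin gene, at 2.67 ± 0.80 and the elongase gene Elovl3 at -1.25 ± 0.50 (adjusted p = 0.216 and 0.414). The cholesterol exporter gene Abcg5 had 0.71 ± 0.18, Cyp2e1 0.53 ± 0.16, Inhbc -0.77 ± 0.23, Me1 -0.70 ± 0.24 and Serpina3m 0.42 ± 0.18, with adjusted p of 0.124, 0.224, 0.219, 0.313 and 0.444. Of the 11 lists of cell type markers and 2 of RNA quality none had a member that passed. Their medians ran from -0.63 for 7 red blood cell genes and -0.49 for 4 bile duct markers to 0.30 for 6 T and NK cell markers, and without libraries 19 and 20 the bile duct marker Krt23 passed below 0.

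Just inside the threshold stood Enpp5, Mat1a and Lin7a, all at an adjusted p of 0.0439, and just outside it Bet1 (-0.65), Lamb3 (-1.31) and Acsl4 (0.54), at 0.076, 0.076 and 0.0766.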

How the data were processed

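Liver RNA was sequenced in 23 libraries. Per the labels' protocols, strand-specific KAPA mRNA-Seq libraries were read as single reads on a HiSeq 2500, and the build GRCm38 and the tools bcl2fastq 2.17 and FastQC were used, per the submitters' processing notes. The tools for alignment and counting, the strand setting and the gene models were not given in the sources used here. A deposited file holds the authors' RPKM of 24475 genes in 23 columns. As these values are no counts, count models were left aside, and reads shared between similar genes cannot be traced.

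Groups came from the sample titles. Values were tested as log2(RPKM + 1), a scale that understates changes of low genes, with limma 3.58.1 in R 4.3.3: 4 group means, a mean-variance trend, two-sided moderated tests and Benjamini-Hochberg adjustment over the 11939 genes that reached 0.5 RPKM in 5 or more libraries. Genes under an adjusted p of 0.05 are said to pass. The fit was tested on simulated data. Alternatives were pseudocounts of 0.1 and 5, no filter and a stricter one, median-ratio and quantile scaling, no trend, array weights, robust moderation, leaving out libraries 19 and 20, and leaving out each library.

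The members and gene lists were chosen with earlier results of these data known. Named genes were first the 12 largest interactions that passed in each direction, with a mean that reached 1 RPKM in a group. Next came the member of each liver or immune list with the smallest p. Last were the 8 genes with the smallest p on both diets, in the same direction, and Gcgr and the transaminases. Other genes were named after their values were seen, and a few genes are not reported here. Positions and promoters are from RefSeq on GRCm38.p6, which matched 11917 of the tested genes.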

Additional observations from a re-analysis of the deposited data

Results flagged for a closer look

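A library stood apart from the others of its group in 13 of 220 groups tested (5.91%), where chance gives about 1 in 20. Library 19 accounted for 3 of them. In chow library 11 with GCGR antibody Fam25c was low at 35.21 RPKM and Elovl3 stood apart at 66.09. In HFD library 19 with GCGR antibody Gpld1 was at 75.74, Enpp5 at 10.61 and Hgd at 189.3. Chow control library 3 had Ces1g at 87.6 and Got2 at 182.6, and HFD control library 13 had Got2 at 254.3 and Gpt2 at 79.23. The others were Odf3b in HFD control library 15 at 3.694, Pnpla7 in HFD GCGR antibody library 21 at 21.76, Slc25a22 in chow control library 4 at 74.78 and Gls2 in chow control library 5 at 179.4 RPKM.

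The antibody effect differed between the diets by the interaction test in 24 genes, of which 23 are given here as the log2 effect on HFD minus that on chow. Above 0 were Cyp3a11 (1.73), Sult5a1 (1.52), Atp6v0d2 (1.0), Ces1g (0.93), Gypc (0.93), Odf3b (0.86), Cyp3a44 (0.84), Mat1a (0.67), Gpld1 (0.61), Enpp5 (0.58), C1ra (0.56), Aldh1a1 (0.56), Lin7a (0.50) and Phyhd1 (0.38). Below 0 were Cyp17a1 (-2.35), Fam25c (-1.29), Sgk2 (-0.65), Cbs (-0.63), Hspb6 (-0.62), Pnpla7 (-0.60), Pcolce2 (-0.58), Gas2 (-0.53) and Sel1l3 (-0.49).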

How the results depend on the processing

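The count of interaction genes above 0, 15 as reported, was 4 without a filter, 7 after median-ratio scaling, 5 after quantile normalization, 109 with array weights and 73 without libraries 19 and 20. Below 0 it was 9 as reported, 4 without a filter, 81 with array weights and 59 without those libraries. Leaving out each library gave 3 to 44 genes above 0 and 2 to 21 below. Array weights and the fit without libraries 19 and 20 shared 117 genes. The weights were lowest for these libraries, at 0.336 and 0.362, so both fits play down the same libraries and are not separate checks. As the weights come from the same values, the p-values with them may also be too small. For the antibody effect on chow, array weights gave 119 genes that rose and 109 that fell, and leaving out each library 21 to 59 and 35 to 78. On HFD, 377 rose and 503 fell after median-ratio scaling, 377 and 412 after quantile normalization, 1414 and 619 with array weights, and 472 fell without libraries 19 and 20. Leaving out each library gave 375 to 1151 that rose and 169 to 453 that fell. Leaving out libraries also changes their number, and dropping the filter changes the number of genes tested. The cause of these moves was not tested. Over all named genes and alternatives the value kept its direction and its side of the threshold 1495 times, lost its call 331 times, gained one 33 times and turned 18 times. All turns were in values near 0: the interaction of Oat (-0.0126) and the interaction of Ass1 (-0.078) after quantile normalization, and the interaction of Gnpda1 with a pseudocount of 0.1 (0.0117), after quantile normalization (0.0089) and without libraries 19 and 20 (0.00497). Leaving out each library gave -0.0367 to 0.186 for the interaction of Got1, -0.0776 to 0.144 for Oat, -0.00134 to 0.192 for Ass1 and -0.103 to 0.0698 for Gnpda1. No paired analysis was possible because the groups share no replicate numbers. Absolute depth is unknown, so low genes such as Pcolce2 and Cyp3a44 have no counting interval.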
